A study of Equus caballus with 4 samples.

Results

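The dual-specificity MAP kinase phosphatases were followed in differentiating equine satellite cells (ESC), which are the stem cells of horse muscle. The group was set as 10 genes, named DUSP1, DUSP2, DUSP4, DUSP5, DUSP6, DUSP7, DUSP8, DUSP10, DUSP14 and DUSP16 (in lowercase below), and its members were found on the arrays as the non-control probes that carry 1 of these names. Of the 10 genes, 8 had a probe by name, with 20 probes in all, among 13766 gene symbols on the array. *dusp8* and *dusp16* had 1 probe each that only the probe description names, and these are given apart. Of the 20 probes, 19 could be tested, in 7 genes.

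The cells came from m. semitendinosus and were taken after 3 days of differentiation. In the HMB-treated group they had 50 µM of β-hydroxy-β-methylbutyrate (HMB), a metabolite of leucine, in the medium for 24 h, with 3 mM H2O2 added in the last 1 h. The control group received the same H2O2 without HMB, so no group here was free of H2O2. Each of 4 arrays carried RNA of the HMB-treated group in Cy5 and of the control in Cy3, and the comparison asks how HMB changed expression in cells under oxidative stress. The dyes were not swapped, hence dye and treatment cannot be told apart. The sample labels write rep1 for the control on every array, whereas the series design gives 4 control replicates. If the control was 1 RNA, its spread is missing from the errors below. By the paper's methods, cultures were made from all horses, and the 1 scoring best for viability and fusion index was kept. The 4 arrays may thus stand for 1 horse. In that case the SD, intervals and p below hold no spread between animals.

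MAP kinases (ERK, JNK and p38) are switched on when both a threonine and a tyrosine of their activation loop are phosphorylated. Dual-specificity phosphatases of the MKP type remove both phosphates and so end the signal. Several of them are themselves transcribed in response to the kinases they switch off, which makes them a negative feedback. In muscle stem cells the p38 kinases promote differentiation, while ERK signaling sustains proliferation.

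The members differ in where they act, and the probes that measured them are short stretches of their transcripts, each of 60 bases. The probes of *dusp2* and *dusp7* are shown because they share a stretch of sequence. Capitals mark the bases that match between them without gaps, and both are given 5′ to 3′.
dusp2: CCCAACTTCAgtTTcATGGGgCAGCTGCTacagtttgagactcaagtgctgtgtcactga
dusp7: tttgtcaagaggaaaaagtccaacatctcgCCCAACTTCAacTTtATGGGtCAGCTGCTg
The *dusp2* probe lies at chr15:8877063-8877122 and the *dusp7* probe at chr16:35642361-35642420, both on the plus strand of EquCab1, the build in the file headers. Over an overlap of 30 bases, 25 matched (83.3%). Among the 198 pairs of probes of different members compared, this was the closest. The next had 18 matching bases of 32. The *dusp2* probe ends in a stop codon, tga, of a frame that is otherwise open. No annotation of this build was used here, so whether a probe lies in an exon or a UTR is not stated.

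For *dusp14*, the first and the last of 5 overlapping probes are shown, since the spread of the 5 within an array is given below. Each has its own sequence and 1 spot, so this spread is not the error of a single probe. Capitals mark the 32 bases that they share.
dusp14, first probe: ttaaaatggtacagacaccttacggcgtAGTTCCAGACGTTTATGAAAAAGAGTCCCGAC
dusp14, last probe: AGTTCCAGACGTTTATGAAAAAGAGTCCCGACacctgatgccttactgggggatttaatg
They start at chr11:35408145 and at chr11:35408173 on the plus strand and together cover 88 bases.

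The *dusp4* probe is shown because it is the only measure of this gene and its bases are not contiguous in the genome.
dusp4: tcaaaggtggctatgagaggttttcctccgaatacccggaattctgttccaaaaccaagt
Its deposited position, chr27:14269579-14279251, covers 9673 bases for a probe of 60.

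The ratio of each probe is given below as log2 of Cy5 (HMB) over Cy3 (control), so a value above 0 is higher with HMB. A probe was tested when 1 channel or both lay well above background, by the flag of the scanner software, on all 4 arrays. It was called when the adjusted p of limma was at most 0.05 and the fold change (FC) at least 1.3, which is 0.38 on the log2 scale. By this rule 27.3% of 8490 tested gene symbols were called on their brightest probe, 10% higher and 17.3% lower with HMB. Of the 7 tested phosphatase genes 1 was called (14.3%), and it was higher, so the count of calls sets the group apart from the background in neither direction. The median log2 ratio of the 7 was 0.24, against -0.09 over all tested genes.

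*dusp1* was the called gene. It encodes a nuclear phosphatase of p38, JNK and ERK that is induced early by stress and mitogens. Its control signals were 1214, 1140, 1209 and 1019 on arrays 1 to 4, and its signals with HMB were 2137, 1812, 2558 and 1697. On each array the signal with HMB exceeded the control signal. A shared sign on 4 arrays was seen in 60.1% of all tested genes. The log2 ratios were 0.82, 0.67, 1.08 and 0.74, with a mean of 0.83 ± 0.18 (SD, n = 4), an FC of 1.77 and an adjusted p of 0.000622 by limma. The 95% interval was 0.62 to 1.03, above the FC threshold over its whole length. The array that was highest, array 3, was also the one with the highest HMB signal, while the control signals of arrays 1 and 3 were close. The ratio lay at percentile 95.8 of all tested genes. *dusp1* rested on 1 probe, at chr14:7915352-7915411 on the plus strand, so no second probe could be set beside it. In RNA from whole cultures, more RNA per cell and a larger share of cells with the transcript cannot be told apart.

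**Figure D1:**
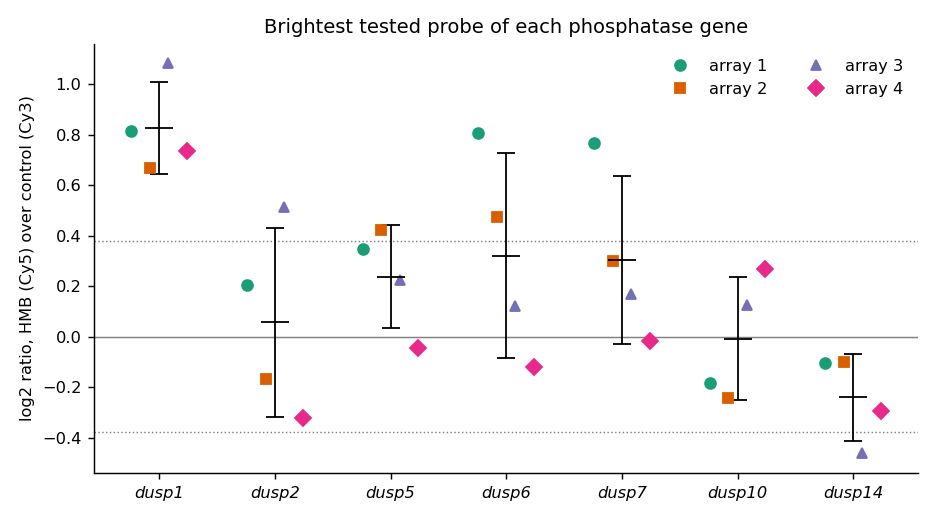
Log2 ratio of HMB (Cy5) over control (Cy3) for the brightest tested probe of 7 phosphatase genes, with 1 point per array, the mean as a bar and the SD (n = 4) as whiskers; the dotted lines mark an FC of 1.3. The 4 points of *dusp1* lie between 0.67 and 1.08, those of *dusp14* all lie below 0, and those of *dusp2*, *dusp5*, *dusp6*, *dusp7* and *dusp10* fall on both sides of 0.

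The other inducible nuclear members that were tested, *dusp2* and *dusp5*, were not called. *dusp2*, best known from activated lymphocytes, gave control signals of 125, 134, 107 and 76.7 and HMB signals of 144, 119, 152 and 61.4. Its log2 ratios, 0.20, -0.17, 0.51 and -0.32, changed sign between arrays. The mean was 0.06 ± 0.38 (SD, n = 4) with an adjusted p of 0.763 by limma, and the interval from -0.28 to 0.40 passed the FC threshold on the upper side, so a rise of that size in *dusp2* is within the error of these arrays.

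*dusp5*, a nuclear phosphatase selective for ERK and transcribed on ERK activation, had the most probes, 7, in 2 separate stretches of chromosome 1. On its brightest probe the control signals were 582, 523, 739 and 588 and the HMB signals 740, 700, 864 and 571. The log2 ratios were 0.35, 0.42, 0.23 and -0.04, with a mean of 0.24 ± 0.20 (SD, n = 4) and an adjusted p of 0.0718 by limma. The HMB signal was higher on arrays 1 to 3 and lower on array 4, and the groups overlapped. The mean of the 7 probes ranged from 0.02 to 0.32. The probe at 0.32 passed the adjusted p with 0.0264 but stayed under the FC threshold, at 1.25. Thus all 7 means were above 0 and none was called.

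The probes of the dimmer *dusp5* stretch are offset by 1 base each, so 5 of them cover only 64 bases. Their log2 ratios nevertheless ran from 0.14 to 0.56 on array 1, from 0.02 to 0.58 on array 2, from -0.04 to 0.31 on array 3 and from -0.25 to 0.04 on array 4. The range within an array was thus 0.29 to 0.56. Control signals of these probes were 39.6 to 93.4. The 5 *dusp14* probes, with control signals of 330 to 528, had ranges of 0.11 to 0.24 within an array.

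*dusp4*, another nuclear phosphatase of ERK and JNK, was not well above background in either channel on any array. Its signals were 9.70, 10.6, 9.73 and 10.72 in the control and 11.6, 14.02, 18.8 and 13.8 with HMB. The HMB signal was the higher on all 4 arrays, but since both channels lay at background no FC is given and the gene was not tested.

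*dusp6* and *dusp7* act in the cytoplasm and are selective for ERK. *dusp6*, whose transcript is a common readout of ERK activity, gave control signals of 726, 673, 1154 and 907 and HMB signals of 1269, 936, 1255 and 835 on its brightest probe. Its log2 ratios fell from 0.81 and 0.48 on arrays 1 and 2 to 0.12 and -0.12 on arrays 3 and 4. The mean was 0.32 ± 0.41 (SD, n = 4) and the adjusted p 0.125 by limma. The control signals of arrays 3 and 4 were above those of arrays 1 and 2, whereas the HMB signals of arrays 1 and 3 were nearly equal.

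The second *dusp6* probe gave 0.85, 0.56, 0.17 and 0.09, in the same order of arrays. Its mean was 0.42 ± 0.35 (SD, n = 4), with an FC of 1.34 and an adjusted p of 0.0422 by limma, so this probe was called. The 2 probes differed by less than the spread between arrays on either, and the call of the gene turned on which probe was taken. Without array 1, 2 or 3 the second probe was not called (adjusted p of 0.109, 0.129 and 0.0616, limma), nor with the methods' t-test, at an adjusted p of 0.168 (n = 4 arrays). The brightest probe was at 0.47 without array 4, with an adjusted p of 0.0479, and was called there, while without array 1 it was at 0.16 with an adjusted p of 0.361 (limma).

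*dusp7* gave control signals of 54.8, 57.2, 72.1 and 52.4 and HMB signals of 93.1, 70.5, 81.1 and 51.8. The log2 ratios were 0.77, 0.30, 0.17 and -0.02, with a mean of 0.30 ± 0.33 (SD, n = 4) and an adjusted p of 0.0949 by limma. The mean was 0.15 without array 1, 0.14 with normexp and 0.18 without background correction. As with *dusp6*, array 1 was the highest and array 4 the lowest. The SD of the 2 genes lay at percentiles 93.3 and 88.9 of all tested genes, where the median SD was 0.15, and that of *dusp1* at percentile 60. The ratios of *dusp6* and *dusp7* on array 1, 0.81 and 0.77, were as large as those of *dusp1*. What set *dusp1* apart from them was that its ratio stayed high on arrays 3 and 4. Whether the order of the arrays in these genes has a technical source was not tested.

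**Figure D2:**
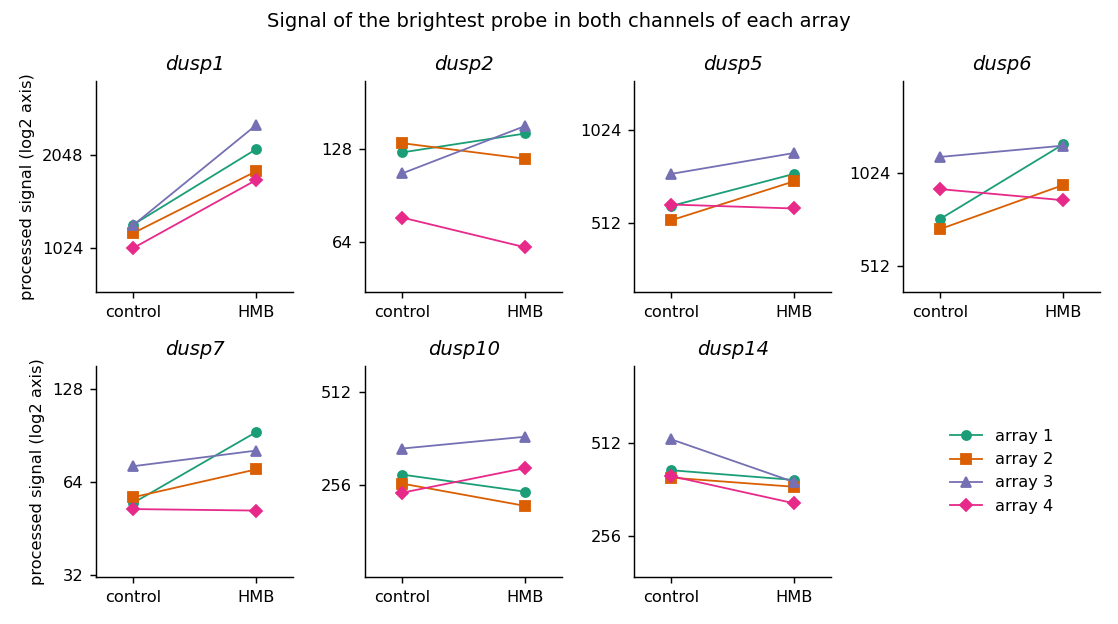
Processed signal of the brightest probe (log2 axis, each panel spanning the same fold range) in the control (Cy3) and the HMB (Cy5) channel, joined within each of 4 arrays. All 4 *dusp1* lines rise and all 4 *dusp14* lines fall; in *dusp6* and *dusp7* the line of array 1 is steep and that of array 4 falls slightly.

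Of the members selective for JNK and p38, only *dusp10* was tested, and it was not called. *dusp10*, which restrains JNK and p38, gave control signals of 277, 259, 336 and 241 and HMB signals of 243, 219, 367 and 290. The log2 ratios were -0.18, -0.24, 0.13 and 0.27, with a mean of -0.01 ± 0.24 (SD, n = 4) and an adjusted p of 0.956 by limma. Arrays 1 and 2 were lower with HMB and arrays 3 and 4 higher, opposite to the order in *dusp6*. Its second probe gave -0.14, -0.02, 0.07 and 0.36, again lowest on arrays 1 and 2. The interval of the first probe, from -0.25 to 0.24, did not reach an FC of 1.3 in either direction.

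*dusp8* and *dusp16*, also phosphatases of JNK and p38, had no probe under their own name. The probe described as *dusp8* had control signals of 15.5 to 19.2 and HMB signals of 9.90 to 21.8. The probe described as *dusp16* had control signals of 17.98 to 19.3 and HMB signals of 7.09 to 11.7. Neither was well above background in either channel on any array, so no FC is given and neither was tested. For *dusp16* the HMB signal was the lower on all 4 arrays, at signals that the flag does not separate from background. On 1 of these arrays the HMB value was a surrogate set by the software.

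*dusp14* is an atypical member, a small phosphatase without the kinase-binding domain of the classical ones, and it was the only tested gene of the group with a lower signal on every array. On its brightest probe the control signals were 419, 396, 528 and 401 and the HMB signals 389, 370, 383 and 327. The log2 ratios were -0.11, -0.10, -0.46 and -0.29, with a mean of -0.24 ± 0.17 (SD, n = 4) and an adjusted p of 0.0538 by limma. All 5 of its probes were lower on 4 of 4 arrays, with means of -0.24 to -0.36. Of these, 4 had an adjusted p at or under 0.05, the lowest 0.00575, but none reached the FC threshold, and the largest FC was 1.28. With normexp the 5 means shrank to -0.08 to -0.17 with adjusted p of 0.0517 or more (limma), and without background correction to -0.11 to -0.22. Since the 5 probes share bases, they are not 5 independent measures.

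Over the 19 tested probes, 13 means were above 0 and 6 below, 7 probes had an adjusted p at or under 0.05, and 2 were called. Among all 24673 tested probes 28.6% were called, 12.1% higher and 16.4% lower. The 4 ratios shared a sign in 2 of the 7 genes (28.6%), *dusp1* and *dusp14*, against 60.1% of all tested genes. The order of the 7 means was *dusp1*, *dusp6*, *dusp7*, *dusp5*, *dusp2*, *dusp10* and *dusp14*. The interval of *dusp1* overlapped that of *dusp6*, at -0.04 to 0.69, and none of the others. From *dusp6* to *dusp14*, each gene had an interval that overlapped that of its neighbour in the order.

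**Figure D3:**
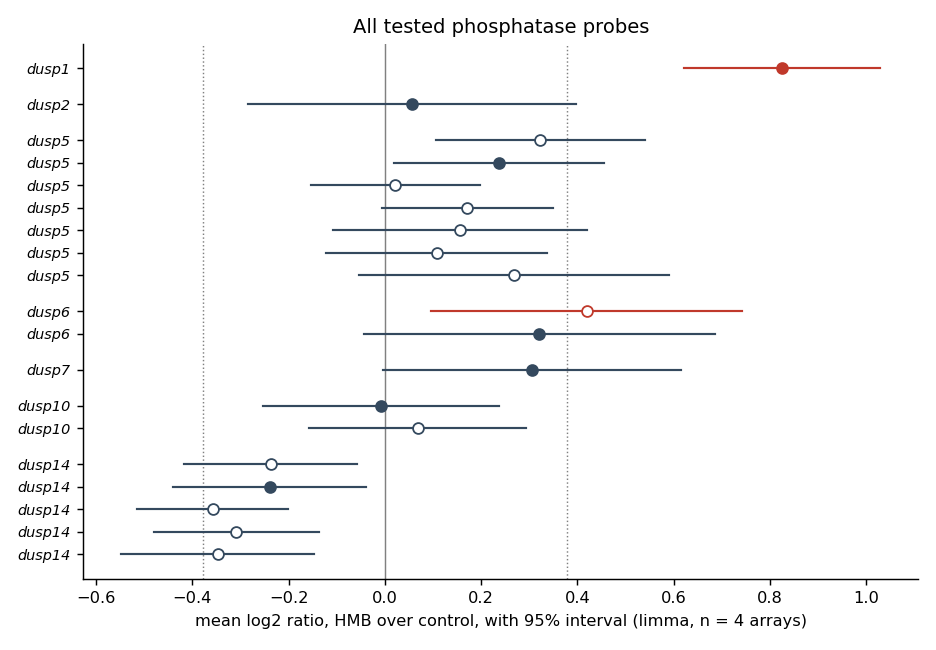
Mean log2 ratio and 95% interval (limma, n = 4 arrays) of the 19 tested phosphatase probes, grouped by gene. Filled circles are the brightest probe of a gene, red marks a called probe and dotted lines an FC of 1.3; 2 probes are red, that of *dusp1* at 0.83 and the second *dusp6* probe at 0.42.

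Of the MAP kinases, the substrates of these phosphatases, 0 were called higher and 1 lower of 9 tested, but 9 lower with the spike-in scaling described below. The 1 was *mapk12*, a p38 kinase of muscle, at -0.44 ± 0.10 (SD, n = 4; FC of 1.35, adjusted p of 0.00308, limma). The p38 gene *mapk14* had a mean log2 ratio of -0.29 ± 0.13 (SD, n = 4) on the brighter of its 2 tested probes. The adjusted p was 0.0189 by limma and the FC 1.22, under the threshold, and neither probe was called. The paper lists *mapk14* as higher with HMB, the opposite direction, and the source of this difference was not tested. It also lists *dusp1* as higher and *map3k7*, *map3k4* and *dusp19* as lower, the directions found here on the same arrays. *mapk3*, an ERK gene, was at -0.16 ± 0.17 and *mapk8*, a JNK gene, at -0.13 ± 0.19 (SD, n = 4), and neither passed the adjusted p. The call of *mapk12* was lost with normexp, where its log2 ratio was -0.12, and without background correction, where it was -0.15.

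Upstream, 0 of 4 tested MAP kinase kinases were called, but 4 were lower with the spike-in scaling. Of 11 tested MAP3K and RAF kinases 1 was higher and 3 lower, and 1 and 6 with that scaling. Only 7 had a probe well above background in both channels on all 4 arrays. The 1 higher gene and *map3k3*, 1 of the 3 lower, were not among these 7. The counts thus rest partly on genes that passed the filter only through the channel where they were high. *map3k8*, a kinase upstream of ERK in inflammatory signaling, was the called gene with the largest rise. It was well above background in the HMB channel on 4 of 4 arrays and in the control on 0 of 4. Its control signals were 20.8 to 26.6 and its HMB signals 41.4 to 105, with log2 ratios of 0.78 to 1.98. With the control set to an upper bound, the mean FC was 2.56, which single arrays and other processing did not all reach. *map3k8* entered the test through the HMB channel alone, so its p is not given. Its log2 ratio was 0.46 without background correction, and 0.33 with normexp, under the FC threshold. *map3k7*, a kinase upstream of JNK, p38 and NF-kB, had the largest fall, -0.66 ± 0.16 (SD, n = 4; FC of 1.58, adjusted p of 0.00124, limma).

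The other brakes of the pathway were mixed, with 2 higher and 1 lower of 12 tested, but 1 and 10 with the spike-in scaling. *spred1*, an inhibitor of RAS and RAF signaling, was higher at 1.00 ± 0.17 (SD, n = 4; FC of 2.00, adjusted p of 0.000243, limma). *ppm1d*, a phosphatase of p38, was lower at -0.60 ± 0.06 (SD, n = 4; FC of 1.52, adjusted p of 0.000618, limma), a call that fell under the FC threshold with normexp and without background correction, at -0.24 and -0.33. Outside the group, 8 genes of the dual-specificity phosphatase family were tested, listed by family and not by activity on MAP kinases. Of these, 0 were higher and 2 lower, and 7 lower with that scaling. *dusp27*, an atypical member of muscle with a role in the sarcomere, was the lowest at -1.80 ± 0.32 (SD, n = 4; FC of 3.49, adjusted p of 0.000133, limma), and its log2 ratio was -0.74 with normexp and -0.995 without background correction. *dusp19*, a phosphatase acting on JNK signaling, was the other, at -0.64.

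Of 13 tested transcripts that ERK signaling induces, 6 were higher and 0 lower, against 10% and 17.3% of all tested genes. Their median log2 ratio was 0.39. With the spike-in scaling, however, 1 was higher and 4 lower with a median of -0.09, and with median centring 6 were higher and 1 lower. Only 11 of the 13 had a probe well above background in both channels on all 4 arrays. The median thus rests partly on genes that passed the filter through 1 channel. Each of the 6 genes called higher had a probe above background in both. The 6 were *ier3*, *myc*, *egr1*, *fosl2*, *atf3* and *junb*, all but *ier3* named after their values were seen. *ier3*, an early response gene of cell survival, gave 1.26, 1.501, 1.85 and 0.94, with a mean of 1.39 ± 0.38 (SD, n = 4; FC of 2.62, adjusted p of 0.000645, limma). As in *dusp1*, array 3 was its highest. Among kinases and factors downstream of MAP kinases 0 were higher and 2 lower of 9 tested, and 8 lower with the spike-in scaling. *mapkapk3*, a kinase activated by p38, had the largest fall, -0.995 ± 0.10 (SD, n = 4; FC of 1.99, adjusted p of 0.000119, limma), which was -0.33 with normexp and then under the FC threshold. The remaining called genes of these lists, named after their values were seen, were *map3k4* (-0.44), *errfi1* (0.51), *mef2a* (-0.39) and *map3k3*. The last was well above background in the control on 4 of 4 arrays but with HMB on 1 of 4, and its log2 ratio was -0.65, or -0.11 with normexp.

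**Figure D4:**
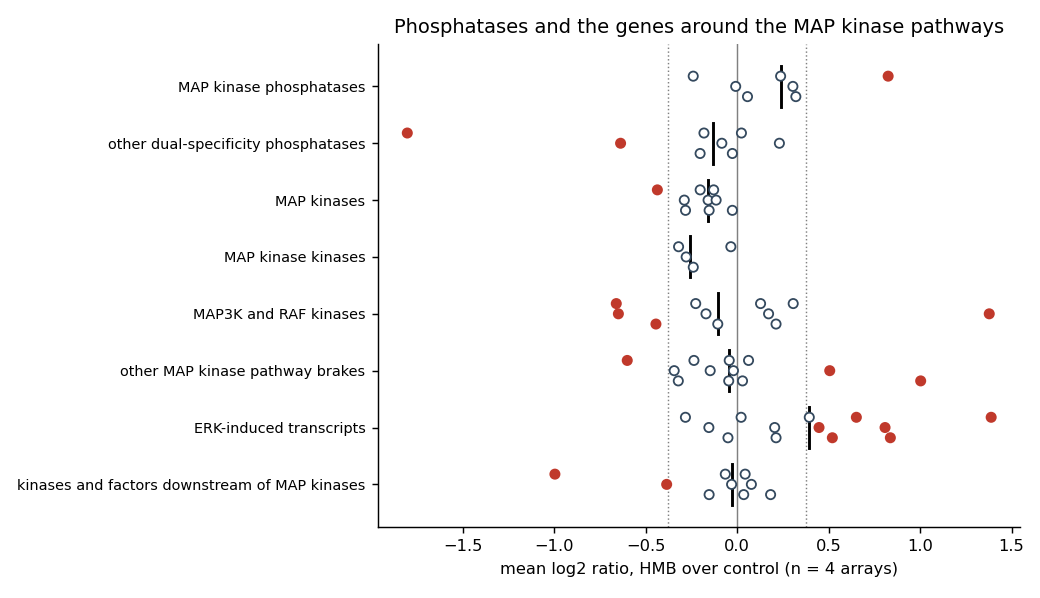
Mean log2 ratio (n = 4 arrays) of each tested gene, on its brightest probe, in the MAP kinase phosphatases and 7 lists of genes around the MAP kinase pathways. Red points are called, black bars are list medians and dotted lines an FC of 1.3. The ERK-induced transcripts have their median at 0.39 and the phosphatases at 0.24. The other 6 medians lie below 0, as does that of all tested genes, -0.09. Genes that passed the filter through 1 channel are included.

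Markers of the cells that such cultures can hold moved with HMB as well. All 5 tested myogenic markers were well above background in both channels, 3 of them were lower and 0 higher (4 and 0 with the spike-in scaling), and their summed signal was 23110 to 29012 in the control and 9364 to 14866 with HMB. Of 5 fibroblast markers 3 were higher and 0 lower (1 and 2 with the spike-in scaling, 5 and 0 with median centring). Their summed signal in control and HMB was 492905 and 455128 on array 1, and 461108 and 399411 on array 2. It was 450556 and 613659 on array 3, and 401815 and 391293 on array 4. The sum was thus higher with HMB on array 3 alone. Of 3 tested immune markers 2 were higher (1 with the spike-in scaling), with sums of 4253 to 5142 and 5013 to 7187, while *cd3e* and *itgam* were not well above background. The 5 endothelial and 3 adipocyte markers on the array were not well above background in both channels on all arrays. The part of these markers in the *dusp1* result was not tested.

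The level that the ratios are centred on mattered for the group. The scanner software centres each array so that most ratios lie near 0. When the ratios were instead shifted by the spike-in RNA of each array, the median of all tested probes moved from -0.07 to -0.56. *dusp1* was then at 0.34 (adjusted p of 0.0223, limma), under the FC threshold. In that scaling *dusp2*, *dusp10* and *dusp14* were called lower, at -0.43, -0.50 and -0.73. The difference between *dusp1* and the other members on an array is the same in both scalings, since each array is shifted by 1 value.

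**Figure D5:**
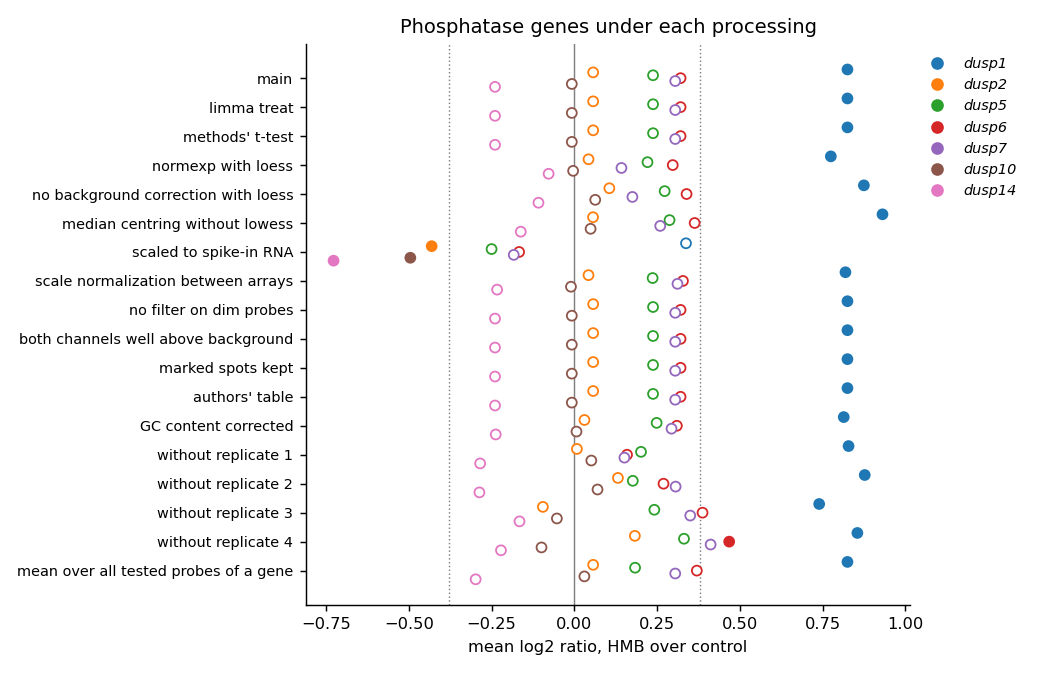
Mean log2 ratio of 7 phosphatase genes under the processing used here (main) and each alternative; filled circles are called, dotted lines mark an FC of 1.3. *dusp1* lies between 0.74 and 0.93 in every row except the scaling to spike-in RNA, where it is at 0.34 and *dusp2*, *dusp10* and *dusp14* are called lower.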

How the data were processed

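The authors' scanner files hold, for each spot of a 2-colour Agilent horse array, intensity values in both channels after background subtraction and linear and lowess normalization, and the deposited log10 ratio of Cy5 over Cy3 (Feature Extraction 10.10.1.1 per the file headers). The deposited flags for signals above background, outliers and surrogates were used as scored by the software. The log2 ratios were calculated here from the deposited log10 values. Of the 45220 spots per array, 1264 positive and 153 negative controls were left out, as were 13 to 35 marked spots per array. Between 55.2% and 61.8% of spots were well above background in a channel, 0 were saturated, and pairs of arrays correlated at r of 0.837 to 0.920. The number of arrays, 4, limits the precision.

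The ratios were tested against 0 with limma 3.58.1 in R 4.3.3 (intercept model, empirical Bayes, Benjamini-Hochberg over all 24673 tested probes). Tested were probes with 3 or more ratios and, on each of the 4 arrays, a signal well above background in the same channel. A gene was represented by its brightest tested probe. Called meant an adjusted p of at most 0.05 and an FC of at least 1.3, the study's thresholds. A bound was given where a channel was at background on every array. The script was tested on simulated data. Genes were named by the files, and 890 other probes through RefSeq accessions. Named beside the members are 3 substrates (another that the rule names is not reported here) and, in each list, the called genes with the largest rise and fall. The members and lists were chosen with earlier results of these data known. All arrays lay on 1 slide. Alternatives were other tests (treat, the methods' t-test), backgrounds (normexp with an offset of 50, none), scalings, filters and probes, and each array left out.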

Additional observations from a re-analysis of the deposited data

Results flagged for a closer look

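Of the 31 groups of 4 ratios examined for a value far from the others (19 phosphatase probes and 12 genes of the surrounding pathways), 1 stood out by Dixon's criterion. It was a *dusp5* probe of the tiled stretch, with ratios of 0.30, 0.26 and 0.31 on arrays 1 to 3 and -0.25 on array 4. Chance alone puts about 1 group in 20 past this limit. The cause was not tested.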

How the results depend on the processing

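The called probes, 7048 in all, were 2822 with treat, 3539 with normexp, 4439 without background correction and 18572 with the spike-in scaling, and 6638 to 7152 when an array was left out. The share higher with HMB was 42.5%, and 54.6%, 55.0%, 60.1% and 6.71% in the first 4 of these settings and 52.4% with median centring. The 1 called phosphatase gene became 3 with the spike-in scaling and 1 to 2 when an array was left out. The 2 called phosphatase probes, an alternative count chosen after seeing the data, were 1 with treat, with the methods' t-test and without the filter on dim probes, 10 with the spike-in scaling, and 1 to 4 when an array was left out. This count covers the probes found by gene name. Without the filter on dim probes the probe described as *dusp16* was called lower as well, at signals that the flag does not separate from background. Signs turned with the spike-in scaling for *dusp2* (-0.43), *dusp5* (-0.25), *dusp6* (-0.17, second probe -0.069) and *dusp7* (-0.18). *dusp2* lay between -0.095 and 0.18 when an array was left out, with -0.095 without array 3. *dusp10*, near 0, turned to 0.063 without background correction, 0.049 with median centring, 0.0064 with the GC correction and 0.030 as the mean of its probes, and lay between -0.099 and 0.070 when an array was left out (0.051 and 0.070 without arrays 1 and 2). *dusp1* was called in every alternative but the spike-in scaling, with adjusted p between 6.58e-05 and 0.0221 in those. The cause of these changes was not tested. Probes at background (*dusp4*, *dusp8*, *dusp16*) limit the group to 7 tested genes. The test on ratios within an array is already paired by array, and with 1 group of ratios no further block by replicate could be fitted.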
